A study of Mus musculus with 4 samples.

Results

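The genes for the activin and inhibin subunits (Inha, Inhba, Inhbb) and for the follistatins (Fst, Fstl1, Fstl3) were followed in C3H10T1/2 cells, an established mouse cell line described by its depositors as mesenchymal stem cells. The members were all probe sets annotated to one of these 6 symbols alone, which gave 10 probe sets among 34945 probe sets with a single symbol, or 6 genes among 18193. Untreated cells (control, 2 arrays) were compared with cells exposed over 6 hours to the recombinant human protein BMP3 at 100 ng/ml (BMP3, 2 arrays). BMP3 is a secreted ligand of the TGF-beta superfamily, and the comparison asks which transcripts differ after a short exposure to it. The arrays of a group are labelled as biological replicates of this single line, and nothing more is said of how the cultures were separated, so p-values measure the spread between these arrays. Values are log2 intensities of 3′ expression arrays. A probe set is called bright here when it averages at least 6 on this scale, a level that 17152 of the 45037 tested reach. The small number of arrays limits the precision of every mean. The labels give no genetic change for either group.

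Activins are dimers of beta subunits, which Inhba (beta A) and Inhbb (beta B) encode, and they signal through type II and type I receptor kinases to SMAD2 and SMAD3. A dimer of one beta subunit with the alpha subunit, the product of Inha, is an inhibin, which binds type II receptors together with the co-receptor betaglycan and so blocks activin. Follistatin (Fst) and its relative Fstl3 wrap around activin in the medium and keep it from its receptors, while Fstl1, in spite of its name, is a SPARC-like secreted glycoprotein that many mesenchymal cells release. BMP3 has been reported to bind the activin type II receptor ACVR2B, and so to share a receptor with this family.

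The data show higher mean values of both beta subunit genes and of Fstl3 in BMP3 arrays, with differences that did not pass the test against the spread between arrays. Inhba had a log2 difference of 1.24 with a standard error (SE) of 0.65, Inhbb of 0.96 with an SE of 0.48, and Fstl3 of 0.86 with an SE of 0.49. Inha had a lower mean (-0.30, SE 0.17), and the brightest probe sets of Fst (-0.15, SE 0.17) and Fstl1 (0.00015, SE 0.11) had differences smaller than their SE. Of the 10 probe sets, 0 passed limma's adjusted p threshold of 0.05, against 0% of the 45037 tested, and 0 had an unadjusted p under 0.05, against 8.39% of those tested. The looser threshold, a fold of at least 1.5 and an unadjusted p under 0.05, was also met by 0 of the 10, against 2.81% of all probe sets. With the replicate number added to the fit as a block, 3 of the 10 (Inhba, Inhbb and Fstl3) met it, against 2164 of the 45037. The labels state no pairing of arrays by this number. The difference of the dim Fstl3 was 1.40 with control replicate 2 left out and 0.32 with control replicate 1 left out. The ordinary linear model without a variance prior likewise put 0 probe sets past the adjusted threshold. The groups did not overlap at 5 of the 10 probe sets, against 36.3% of all probe sets, and at 4 of the 7 bright ones, against 48.6% of all bright probe sets. The median difference over the 10 probe sets was 0.0050, and over all probe sets it was -0.017.

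Inhba, Inhbb and Fstl3 shared the same order of the 4 arrays, and the RefSeq sequences before their start sites are shown because these are the members whose values moved together from array to array. RefSeq (GRCm38.p6) held a promoter entry for 5 of the 6 genes, all but Fst. Each line gives the 250 bases before the annotated start, 5′ to 3′ on the gene's strand, and capitals mark letters that match a TATA box (TATAAA), a GC box (GGGCGG) or a SMAD box (CAGAC) on either strand, 2 matches of one motif being allowed to overlap.
Inhba promoter, chr13:16011601-16011850, plus strand: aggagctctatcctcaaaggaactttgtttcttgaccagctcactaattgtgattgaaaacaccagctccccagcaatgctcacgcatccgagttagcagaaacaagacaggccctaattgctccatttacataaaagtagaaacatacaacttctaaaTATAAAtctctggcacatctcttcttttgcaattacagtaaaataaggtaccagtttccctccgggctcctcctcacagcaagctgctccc
Inhbb promoter, chr1:119422249-119422498, minus strand: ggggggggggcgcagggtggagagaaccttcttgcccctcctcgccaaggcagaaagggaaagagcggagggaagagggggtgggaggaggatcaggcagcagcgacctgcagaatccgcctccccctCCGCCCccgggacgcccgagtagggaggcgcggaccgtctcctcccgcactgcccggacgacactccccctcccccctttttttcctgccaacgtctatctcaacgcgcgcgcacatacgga
Fstl3 promoter, chr10:79777024-79777273, plus strand: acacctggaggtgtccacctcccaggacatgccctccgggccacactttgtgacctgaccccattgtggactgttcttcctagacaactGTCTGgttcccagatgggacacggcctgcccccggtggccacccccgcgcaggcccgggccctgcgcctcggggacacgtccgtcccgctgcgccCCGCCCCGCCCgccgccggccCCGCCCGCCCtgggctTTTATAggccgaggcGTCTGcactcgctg
The window of Inhba was AT-rich by comparison, with 43.2% G and C and 3 CpG dinucleotides, and it held 1 TATA box, whose first base lies 91 bases before the start. Inhbb had 68% G and C with 21 CpG dinucleotides, 1 GC box and no TATA box. Fstl3 had 71.2% G and C with 22 CpG dinucleotides, 4 GC boxes, 2 SMAD boxes and 1 TATA box, 29 bases before the start. The median over all 32851 promoter windows was 52.4% G and C. A TATA box was found in 12.4% of these windows, a GC box in 32.7% and a SMAD box in 42.2%. The AP-1 motif (TGANTCA), found in 6.75% of windows, and the CRE motif (TGACGTCA), in 1.55%, had 0 matches in the windows of Inha, Inhba, Inhbb, Fstl1 and Fstl3. No motif of the 5 searched was thus in all 3 windows, and these letters say nothing about which factors bind there.

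Inhba, which encodes the subunit of activin A, was read by probe set 1422053_at, designed on the RefSeq transcript. Its log2 values were 9.34 and 10.42 in control replicates 1 and 2 and 10.51 and 11.74 in BMP3 replicates 1 and 2. The groups did not overlap, but control replicate 2 and BMP3 replicate 1 lay only 0.094 apart, while the arrays of a group lay 1.07 (control) and 1.23 (BMP3) apart. The means were 9.88 ± 0.76 and 11.13 ± 0.87 (SD, n = 2 arrays each). The difference of 1.24 corresponds to a 2.37-fold higher mean in BMP3 arrays, with a 95% interval from 0.593-fold to 9.46-fold (limma adjusted p = 0.824). The difference came to 0.71 without control replicate 1 and to 0.63 without BMP3 replicate 2. It was 1.78 without control replicate 2 and 1.86 without BMP3 replicate 1. Between arrays of the same number, Inhba was 1.17 (replicate 1) and 1.32 (replicate 2) higher in the BMP3 array. The labels state no pairing by this number. Over the 4 arrays, 0.665% of bright probe sets had a mean at least 2-fold higher in BMP3 arrays, Inhba among them. The members were chosen with earlier results known, so this share does not test the Inhba difference, whose error was wide. The second probe set, 1458291_at, designed on an expressed sequence tag, stayed between 1.90 and 1.92 on the 4 arrays, below the 6th percentile of probe sets, and gave no reading comparable to the first.

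Inhbb, which encodes the subunit of activin B, followed the same course at probe set 1426858_at. The control arrays gave 8.90 and 9.71 and the BMP3 arrays 9.82 and 10.72. Again control replicate 1 was the lowest and BMP3 replicate 2 the highest, and the nearest arrays of the 2 groups were 0.11 apart. The group means were 9.31 ± 0.57 and 10.27 ± 0.64 (SD, n = 2 each), a 1.95-fold higher mean in BMP3 arrays with a 95% interval from 0.694-fold to 5.45-fold (limma adjusted p = 0.811). Leaving out control replicate 1 gave 0.56 and leaving out BMP3 replicate 2 gave 0.51. The difference was 1.37 without control replicate 2 and 1.41 without BMP3 replicate 1. Between arrays of the same number, Inhbb was 0.92 (replicate 1) and 1.01 (replicate 2) higher in the BMP3 array. Its other probe set, 1426859_at, ran from 1.38 to 1.43, within the lowest 1% of each array.

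Inha, which encodes the alpha subunit that turns a beta subunit into an inhibin, was measured by 1422728_at only just inside the bright range. It read 6.51 and 6.14 in the control arrays and 6.13 and 5.92 in BMP3 arrays. Both control arrays were higher, with a gap between the groups of 0.011. The means were 6.32 ± 0.26 and 6.02 ± 0.15 (SD, n = 2 each), a 1.23-fold higher mean in control arrays (difference -0.30, 95% interval -0.83 to 0.23, limma adjusted p = 0.849). Leaving out control replicate 2 gave -0.49 and leaving out control replicate 1 gave -0.11. Inha and the beta subunit genes thus had opposite orders over the arrays.

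**Figure D1:**
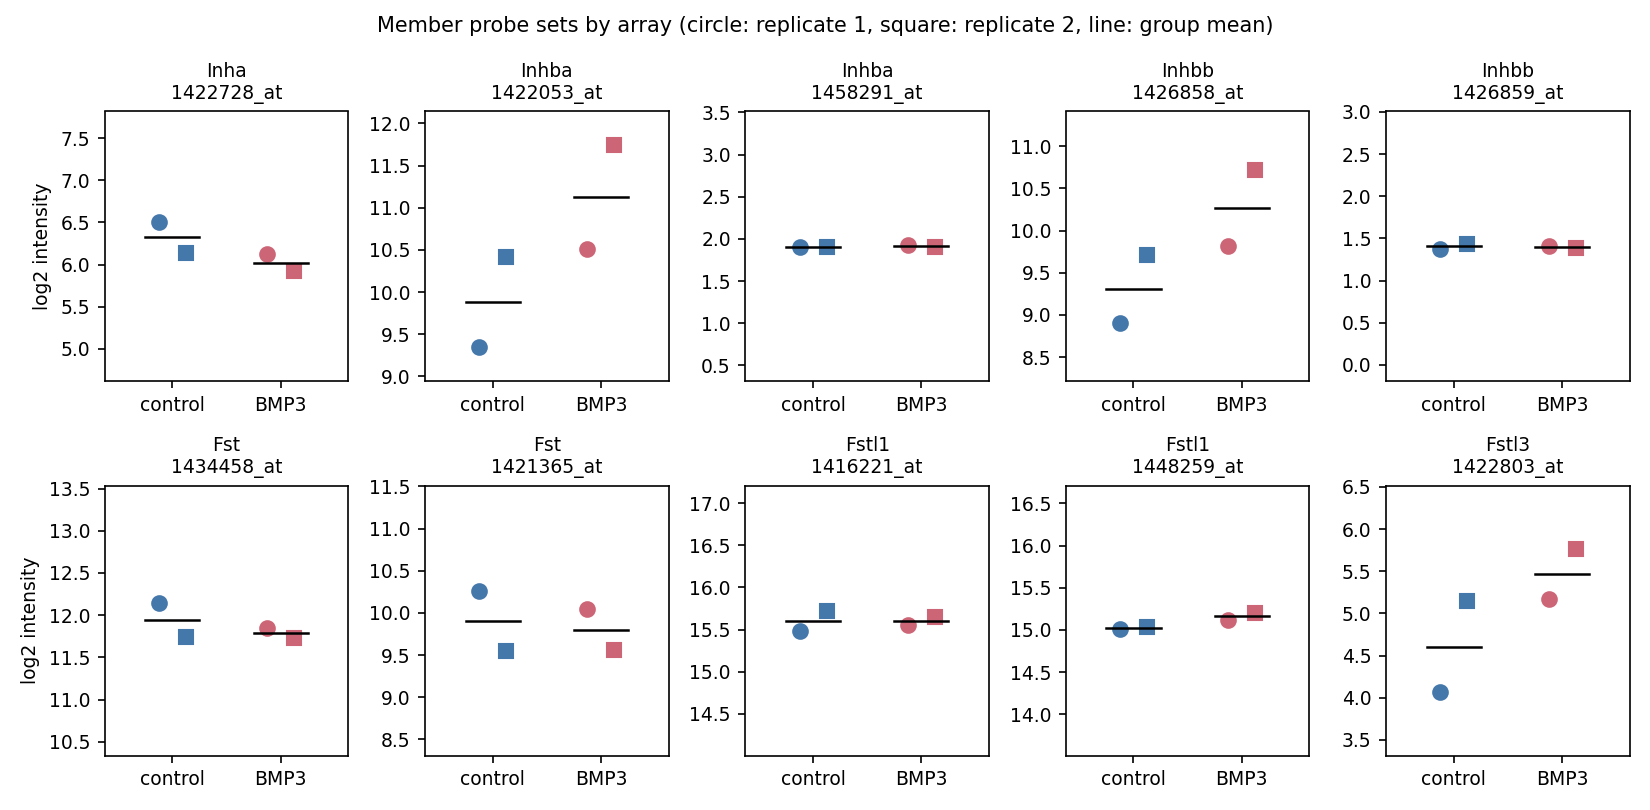
Log2 intensity (vertical axis, each panel spanning the same number of log2 units) of the 10 member probe sets in control (blue) and BMP3 (red) arrays, with circles for replicate 1, squares for replicate 2 and lines for the mean of 2 arrays. Inhba 1422053_at, Inhbb 1426858_at and Fstl3 1422803_at are lowest in control replicate 1 and highest in BMP3 replicate 2, while both Fstl1 probe sets and the dim probe sets of Inhba and Inhbb are flat.

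Fst, the main soluble antagonist of activin, had 2 probe sets well inside the measured range, and neither separated the groups. Probe set 1434458_at gave 12.14 and 11.74 in the control arrays and 11.85 and 11.73 in BMP3 arrays, with control replicate 1 above the other 3 arrays. Its means were 11.94 ± 0.28 and 11.79 ± 0.08 (SD, n = 2 each; limma adjusted p = 0.914), and the difference of -0.15 became 0.046 with control replicate 1 left out and -0.35 with control replicate 2 left out. Probe set 1421365_at, designed on the RefSeq transcript, gave 10.26 and 9.55 in the control arrays and 10.04 and 9.56 in BMP3 arrays. There the replicates numbered 1 were high and those numbered 2 low in both groups, with a difference between groups of -0.10 (SE 0.34, limma adjusted p = 0.976). It was 0.25 with control replicate 1 left out and 0.14 with BMP3 replicate 2 left out. The 95% interval at the brighter probe set, -0.67 to 0.37, corresponds to 0.628-fold to 1.29-fold, and a change of Fst within it was not detectable with these arrays.

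Fstl3, a second activin-binding antagonist, was dim at its only probe set, 1422803_at, yet varied like the beta subunit genes. Its values were 4.07 and 5.15 in the control arrays and 5.17 and 5.76 in BMP3 arrays. Control replicate 1 stood apart from the other 3 arrays, and control replicate 2 and BMP3 replicate 1 differed by 0.018. The means were 4.61 ± 0.77 and 5.46 ± 0.42 (SD, n = 2 each), a 1.81-fold higher mean in BMP3 arrays with a 95% interval from 0.633-fold to 5.18-fold (limma adjusted p = 0.849). The difference was 0.32 without control replicate 1, 0.56 without BMP3 replicate 2, 1.15 without BMP3 replicate 1 and 1.40 without control replicate 2. The mean of Fstl3 over the 4 arrays was 5.04, under the level called bright here. Its 4 array values lie between the 54.8th and the 61.5th percentile of their arrays.

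Fstl1, the SPARC-like glycoprotein gene, was among the brightest signals of the arrays, and its 2 probe sets varied the least among the bright members. Probe set 1416221_at gave 15.49 and 15.72 in the control arrays and 15.56 and 15.65 in BMP3 arrays, so that the BMP3 arrays lay between the control arrays. Its difference was 0.00015 (95% interval -0.33 to 0.33, limma adjusted p = 1), and it was slightly negative under quantile normalization (-0.070) and cyclic loess (-0.073). Probe set 1448259_at gave 15.01 and 15.04 in the control arrays and 15.12 and 15.21 in BMP3 arrays, without overlap. Its difference of 0.14 (SE 0.050, 95% interval -0.019 to 0.29) had the smallest adjusted p of the 10 members, 0.659 by limma. Both probe sets lie above the 99th percentile of every array.

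**Figure D2:**
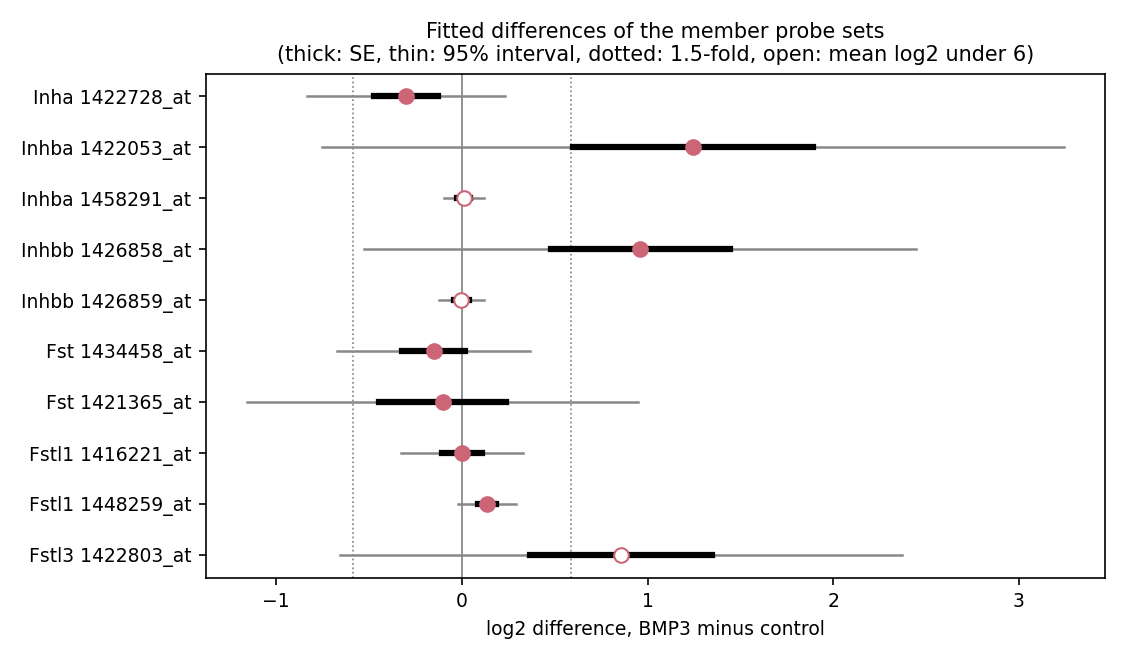
Log2 difference, BMP3 minus control (horizontal axis), of each member probe set with its SE (thick bar) and 95% interval (thin bar) from limma, dotted lines marking a 1.5-fold difference and open symbols a mean log2 value under 6. Inhba, Inhbb and Fstl3 lie past the dotted line with the widest intervals, and every interval includes 0.

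Set against one another within each array, the members did not keep a constant ratio. Relative to Fst, and counted from the control mean of the log2 ratio, Inhba stood at -0.74 and 0.74 in the control arrays and at 0.72 and 2.07 in BMP3 arrays. BMP3 replicate 2 was thus above the other 3 arrays, and BMP3 replicate 1 was level with control replicate 2. Relative to Inha, Inhba stood at -0.72 and 0.72 in the control arrays and at 0.83 and 2.26 in BMP3 arrays. Relative to Inhbb it moved far less, from -0.13 and 0.13 in control to 0.12 and 0.45 in BMP3 arrays, and relative to Fstl3 it stood at 0.0045 and -0.0045 in the control arrays and at 0.072 and 0.70 in BMP3 arrays. These ratios describe unequal change between probe sets and do not compare the amounts of the proteins or transcripts.

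The array order seen in Inhba, Inhbb and Fstl3, control replicate 1 lowest, then control replicate 2, BMP3 replicate 1 and BMP3 replicate 2, was also that of Fstl1 1448259_at, and it held for 7.79% of bright probe sets. Some control probe sets varied along the same arrays in the opposite direction. The poly-A spike-in Dap, a bacterial RNA of the kind added before labelling, averaged 10.39 and 9.86 in the control arrays and 9.13 and 8.85 in BMP3 arrays. Another, Phe, averaged 8.03 and 7.07 in the control arrays and 6.52 and 6.57 in BMP3 arrays, with control replicate 1 apart. For Dap and Phe, and likewise for the poly-A spike-ins Lys and Thr, both control arrays were higher than both BMP3 arrays. Lys averaged 7.45 and 6.48 in the control arrays against 6.11 and 6.37. Thr averaged 6.22 and 5.59 in the control arrays against 5.43 and 5.43. Hybridization spike-ins stayed between 11.48 and 11.62. The control probe sets for 18S ribosomal RNA averaged 11.41 and 10.50 in untreated and 8.99 and 9.90 in treated cells. The 3′ minus 5′ log2 difference of Gapdh, a sign of RNA length, was -0.55 and -0.56 in untreated and -0.088 and -0.44 in treated cells, and that of beta-actin 0.48 and 0.39 against 0.73 and 0.38. Median log2 values were 3.31 to 3.40 over the 4 arrays. The part of these spike-in, ribosomal and 3′ to 5′ differences in the values of Inhba, Inhbb and Fstl3 was not tested.

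**Figure D3:**
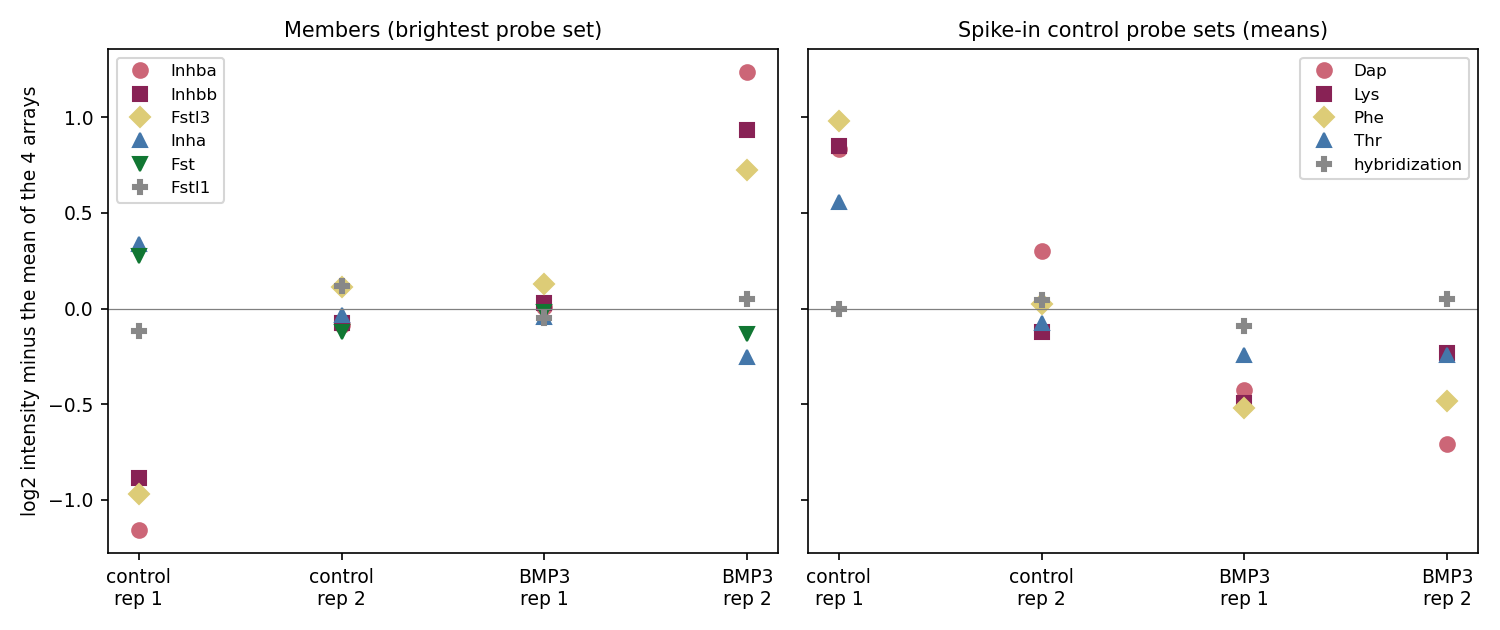
Log2 intensity minus the mean of the 4 arrays (vertical axis) in each array for the brightest probe set of each member (left) and for the mean of the spike-in control probe sets (right), 1 point per array. Inhba, Inhbb and Fstl3 are low in control replicate 1 and high in BMP3 replicate 2, and the poly-A spike-ins Dap, Lys, Phe and Thr are highest in control replicate 1.

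Genes with a pattern most like those of Inhba and Inhbb were ranked by the root mean square distance between profiles centred on their own mean over the 4 arrays, among 9184 other genes with a bright probe set. The nearest to Inhba was Anxa8, which encodes an annexin, at a distance of 0.021 log2 units. Anxa8 read 6.98 and 8.11 in the control arrays and 8.16 and 9.39 in BMP3 arrays. Lrig1, which encodes a transmembrane regulator of growth factor receptors, followed at 0.16, and Flt1, a VEGF receptor gene, at 0.17. Inhbb was the 5th nearest gene to Inhba, at 0.20. The nearest to Inhbb were Slc7a5, an amino acid transporter gene (0.097), Fkbp5, which encodes an immunophilin that binds HSP90 (0.11), and Flt1 (0.11), while Inhba was the 36th nearest. With 4 arrays such likeness is a description of these libraries, and each profile holds the spread between replicates as well as the difference between groups.

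The 3′ arrays also measured the machinery around these ligands, through lists of 41 genes of which 40 had a probe set of their own. Mstn was not analysed here. Each gene is given by its brightest probe set. Of the 40, 14 had a higher and 26 a lower mean in BMP3 arrays, with a median of -0.021 against -0.011 over all genes, and 57.6% of all genes had a lower mean. Median centring turned this split to 22 higher and 18 lower, quantile normalization to 20 and 20, and cyclic loess to 19 and 21, so the list as a whole has no direction that holds across scalings. By limma 0 of the 40 passed the adjusted threshold and 2 had an unadjusted p under 0.05. The same 2, Pcsk6 and Tmeff1, passed the looser threshold, as 2.83% of all genes did.

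Pcsk6, which encodes the proprotein convertase PACE4, one of the enzymes that cut ligand precursors of this superfamily into active form, had the largest difference among the 20 bright genes of the lists. It read 8.41 and 8.78 in the control arrays and 7.21 and 7.42 in BMP3 arrays, so the groups lay far apart compared with the spread within them. Its difference was -1.28 with an SE of 0.17 (unadjusted p = 0.00399, limma adjusted p = 0.301), and it lay between -1.46 and -1.10 when single arrays were left out. Furin, the convertase with the broadest range of precursors, had 0.22 ± 0.12 (log2 difference ± SE). Tmeff1, which encodes a membrane protein with follistatin domains, read 9.50 and 9.65 in the control arrays and 8.88 and 9.08 in BMP3 arrays (difference -0.59, SE 0.10, limma adjusted p = 0.361). Its other probe set at this level had -0.26, and its fold was under 1.5 without control replicate 2 (-0.52) or BMP3 replicate 1 (-0.50).

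All 8 activin receptor and co-receptor genes had lower means in BMP3 arrays, with a median of -0.17, and 0 of them passed the adjusted threshold or had an unadjusted p under 0.05 by limma. Under median centring 1 of the 8 was higher, and without BMP3 replicate 2 there were 4 higher and 4 lower (median -0.015), and without control replicate 2 there were 3 higher and 5 lower. The type II receptor gene Acvr2b was dim on all 4 arrays (2.78 to 3.17). Its relative Acvr2a had a difference of -0.12 ± 0.12, with its other bright probe set at 0.0036. The activin type I receptor gene Acvr1b had -0.32 ± 0.33. The type I receptor gene Acvr1 had -0.065 ± 0.18, with its other bright probe set at -0.35. Tgfbr3, the inhibin co-receptor betaglycan, read 12.18 and 10.97 in the control arrays and 12.24 and 10.04 in BMP3 arrays, high in both replicates numbered 1 and low in both numbered 2. Its difference of -0.43 (SE 0.99) was 0.17 without control replicate 1 and 0.66 without BMP3 replicate 2. Bambi, a decoy receptor gene, had -0.31 ± 0.15.

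Among intracellular mediators of activin, 4 of 6 had higher and 2 lower means, under each scaling used. Smad2 and Smad3, the receptor-activated SMADs of this branch, had 0.37 ± 0.16 and 0.38 ± 0.25. The other bright probe set of Smad2 had 0.067. The Smad3 value was 0.11 with BMP3 replicate 1 left out and 0.66 with BMP3 replicate 2 left out, and the Smad2 value was 0.23 with control replicate 1 and 0.24 with BMP3 replicate 2 left out. Their common partner Smad4 had -0.21 ± 0.071, and its 3 bright probe sets ran from -0.39 to -0.034. The inhibitory Smad7 had -0.47 ± 0.19 at 1 probe set and -0.022 at the other. Zfyve9, which encodes the SMAD anchor SARA, had 0.12 ± 0.076. Gdf11, a ligand that follistatin also binds, had 0.017 ± 0.043. The liver-type beta subunit genes Inhbc and Inhbe stayed under a log2 value of 3 on the 4 arrays, as values near the bottom of the range. None of the 4 other antagonist genes listed (Wfikkn1, Wfikkn2, Lefty1, Lefty2) was bright.

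Among 12 relatives with follistatin domains, 4 were bright. Sparc, a matrix glycoprotein gene, had 0.082 ± 0.097, Smoc2 -0.31 ± 0.14 with its other probe set at -1.31, and Agrn, which encodes agrin, -0.059 ± 0.034, turned to 0.015 under quantile normalization. Of the genes for proteins reported to bind FSTL1, Dip2a was flat (-5e-05 ± 0.037), Cd14 had 0.19 ± 0.70 and the receptor gene Tlr4 -0.62 ± 0.46, from -1.06 without BMP3 replicate 1 to -0.18 without BMP3 replicate 2. Cd14 read 8.54 and 7.43 in the control arrays and 8.86 and 7.49 in BMP3 arrays, so that it followed the replicate number and not the treatment.

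**Figure D4:**
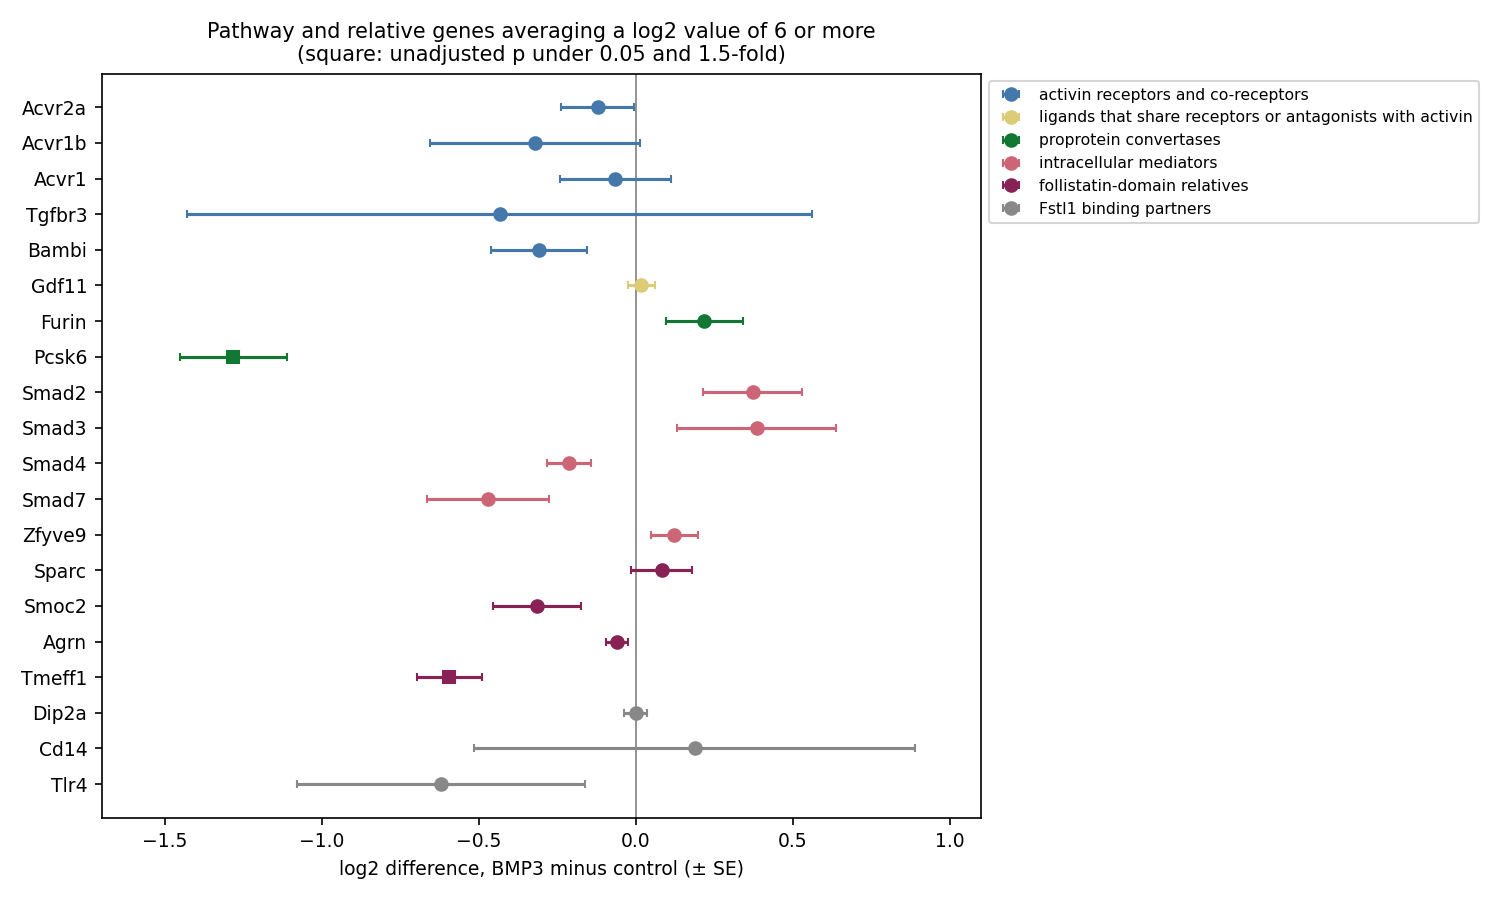
Log2 difference, BMP3 minus control, with its SE (horizontal axis) for the 20 bright pathway and relative genes, coloured by list, 2 arrays per group, squares marking those past the looser threshold. Pcsk6 and Tmeff1 carry squares, at -1.28 and -0.59.

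Most of the listed mesenchymal markers gave bright signals, which does not test whether the cells are stem cells. Of 13 measured mesenchymal markers, 12 were bright, and the mean over the list was 12.57 and 12.50 in the control arrays and 12.65 and 12.50 in BMP3 arrays. Nt5e was dim. Of the 13, 5 had a higher and 8 a lower mean in BMP3 arrays, with a median difference of -0.030. Among the lower ones, Pdgfra had -0.73 (SE 0.52). The looser threshold was passed by 2 of the 13, against 2.83% of all genes, both with higher values in BMP3 arrays. They were the surface glycoprotein gene Thy1 (difference 0.73, SE 0.098, limma adjusted p = 0.301) and Cd44, which encodes the hyaluronan receptor (0.64, SE 0.19, limma adjusted p = 0.563). Macrophage and leukocyte markers (0 of 5 bright) and gonadal somatic markers (0 of 4), the latter from the classical source of inhibin, had no bright member. Epithelial markers were bright at 1 of 5 (Epcam) and endothelial markers at 1 of 5 (Tek). Tek had a difference of -2.62 (SE 0.21, limma adjusted p = 0.224) and passed the looser threshold. The defining endothelial markers Pecam1, Cdh5 and Kdr stayed under 3 in both groups, as did Tie1. In bulk RNA, fewer cells of a type and less RNA per cell cannot be told apart.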

How the data were processed

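RNA from each culture was converted to biotin-labelled cRNA for Affymetrix 3′ expression arrays, per the labels' protocols. The authors deposited log2 values, 1 for each probe set on each array. No source states this scale, which was read from the range of the values. The submitters' processing notes name Partek alone. Background correction, normalization and summary were not given in the sources, so a change common to most transcripts could be hidden. The values were used as deposited, with dim probe sets kept and 64 control probe sets left out. Groups came from the sample titles. Of 45037 probe sets, 34945 had 1 symbol, 932 several and 9160 none listed. Entrez identifiers were used to check 34741 symbols, and 0 changed. The probe set with the highest mean led a gene.

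The BMP3 minus control difference was fitted in limma 3.58.1 (R 4.3.3; lmFit, eBayes, 1.18 prior degrees of freedom) with two-sided p-values, Benjamini-Hochberg adjusted over all probe sets, and 95% intervals. A trial of the fit on simulated data with known changes used independent noise for each array. It therefore does not cover deviations shared by arrays of the same number. Tables were made with Python 3.11.15 and pandas 2.3.3. The members and lists were chosen with earlier results of these data known. Genes named are the members, listed genes that passed the looser threshold or were bright, and the 3 genes nearest in pattern. Dim listed genes, markers and spike-ins are named beyond that rule. Alternatives were a replicate block, leaving out each array, other scalings, a filter on dim probe sets, an offset of 16, other variance models and other probe sets per gene.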

Additional observations from a re-analysis of the deposited data

How the results depend on the processing

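In every alternative run, 0 probe sets passed the adjusted threshold. The filter on dim probe sets left out Fstl3. Wherever they were fitted, Inhba, Inhbb, Fstl3 and Inha kept the direction of their difference at the brightest probe set. With arrays left out one at a time they ran from 0.63 to 1.86, 0.51 to 1.41, 0.32 to 1.40 and -0.49 to -0.11. The offset of 16 took Fstl3 from 0.86 to 0.56, under 1.5-fold, and quantile normalization took Inha from -0.30 to -0.14. Differences turned for Fstl1 1416221_at under quantile normalization (-0.070) and cyclic loess (-0.073), and for the dim Inhbb 1426859_at under median centring (0.036). With arrays left out, the ranges that crossed 0 were -0.12 to 0.12 for Fstl1 1416221_at, -0.35 to 0.046 for Fst 1434458_at, -0.46 to 0.25 for Fst 1421365_at, -0.0022 to 0.022 for Inhba 1458291_at and -0.028 to 0.022 for Inhbb 1426859_at. The 1265 probe sets past the unadjusted p and the 1.5-fold threshold became 589 in the ordinary linear model and 1071 to 2277 with arrays left out, the highest without BMP3 replicate 1. Of the pathway genes 1 passed it, not 2, under quantile normalization, median centring, cyclic loess or the offset of 16, and 1 to 2 with arrays left out. Those with a higher mean, 14, became 22 under median centring, 7 where dim probe sets were left out and fewer genes tested, and 11 to 23 with arrays left out, the highest without BMP3 replicate 2.

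The replicate number is shared by the groups without a stated meaning. The deviations of control and BMP3 replicate 1 from their group means correlated at 0.45 over all probe sets and 0.60 over bright ones, which are not independent replicates. With the replicate block the limma adjusted p became 0.136 for Inhba and Inhbb (SE 0.073 and 0.063), 0.193 for Fstl3 and 0.264 for Inha. The unadjusted p and 1.5-fold threshold was passed by 2164 of the 45037 probe sets. That threshold was then met by 3 of the 10 member probe sets (Inhba, Inhbb and Fstl3, unadjusted p = 0.000516, 0.000723 and 0.0124 by limma), not 0, and by 3 of the 40 pathway genes, not 2, Tlr4 being added (difference -0.62, SE 0.067). Signal limits Fstl3 and the dim probe sets, and no scanner files were used here to repeat the background correction.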
